A study of Rattus norvegicus with 6 samples.

Results

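The zinc transporters and metallothioneins of rat islets described here are 10 genes, chosen by symbol as families that move or bind zinc: 5 zinc exporters (Slc30a8, Slc30a1, Slc30a5, Slc30a7 and Slc30a9), 3 zinc importers (Slc39a1, Slc39a7 and Slc39a14) and 2 metallothioneins (Mt1a and Mt2A). All 10 have a row among the 17055 gene rows of the count files, and all 10 were among the 10124 genes that passed a filter on low counts. Intact islets, the hormone-secreting clusters within the pancreas, were taken from Sprague-Dawley rats of 2 ages: an adult group of 3-month-old males and a P10 group of 10-day-old pups whose sex is not given. Both groups are labelled as controls, with no treatment or allele named, and hold 3 libraries labelled as biological replicates. The series concerns the postnatal maturation of beta cells, and the comparison asks which mRNAs differ between the ages. The labels do not say whether pups were pooled for a P10 library.

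Zinc matters to the beta cell because insulin is stored in its granules as crystals held together by zinc. Exporters of the SLC30 (ZnT) family carry zinc out of the cytosol into vesicles, organelles or the outside, and importers of the SLC39 (ZIP) family carry it into the cytosol. Metallothioneins are small proteins rich in cysteine that bind zinc and copper, and in rodents their genes are switched on by zinc through the transcription factor MTF-1 and by glucocorticoid hormones.

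Both metallothioneins had a larger fold change than any of the 18 other zinc genes tested: Mt2A mRNA was 3.74-fold and Mt1a mRNA 3.13-fold higher in adult islets. Of the transporters Slc30a9 rose 1.61-fold and Slc39a1 fell 1.38-fold, both just past the threshold, and the 6 others did not pass, among them the granule exporter Slc30a8. In total 3 of the 10 genes were higher and 1 was lower in adults (edgeR quasi-likelihood test, Benjamini-Hochberg false discovery rate, FDR, below 0.05), where 12.5% of all tested genes were higher and 13.8% lower. The values of adult and P10 libraries did not overlap in 6 of the 10, against 42.3% of all tested genes, and of the 8 transporters alone 1 was higher and 1 lower, which is near the background. The median log2 fold change, adult over P10, was 0.34 over the 10 genes and -0.03 over all tested genes.

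Levels are given as normalised CPM, the count of a gene relative to the size of its library, after factors that correct for library composition. The reads assigned to genes numbered between 3307415 and 6280144 in adult and between 3554194 and 6477825 in P10 libraries, and 1 count was worth between 0.136 and 0.367 CPM. Transcript lengths were not used, so levels are compared between ages and not between genes. Insulin took between 46.6% and 52.3% of the gene counts in adult and between 28.3% and 33.6% in P10 libraries, and the direction of small differences depends on how this is scaled: scaling by library totals alone shifts the median over all genes by -0.49 on the log2 scale, and 3.39% of genes are then called higher and 35.7% lower. Higher calls made up 47.6% of all calls with the factors used and 8.67% under library totals. The endocrine markers Ins1, Ins2, Gcg and Sst were present in every library, as the tissue label says. Of the beta cell markers 6 of 8 tested were higher in adults, of the alpha cell markers 2 of 6 were higher and 1 lower, and of the delta and PP cell markers 1 of 5 was higher and 1 lower. Among endothelial markers 1 of 8 was lower, and of 7 leukocyte markers none was called in edgeR, with 0 also at an unadjusted p under 0.05 and 0 in DESeq2. Fibroblast markers summed to between 241 and 328 CPM in adult and between 2502 and 3193 CPM in P10 libraries, with all 7 tested of 9 listed lower in adults (Col1a2 was at 0 in every library), and duct markers to between 841 and 1137 CPM in adult and between 2580 and 2884 CPM in P10 libraries, with all 5 tested of 8 listed lower. The part of this difference in cell makeup in the results below was not tested, and in whole islets fewer cells of a type and less RNA per cell cannot be told apart. P10 replicate 1 stood apart: 359 of 8780 genes averaging at least 5 CPM were there below 0.5 times the level of both other P10 libraries, against 33 to 233 such genes in the other 5 libraries.

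**Figure D1:**
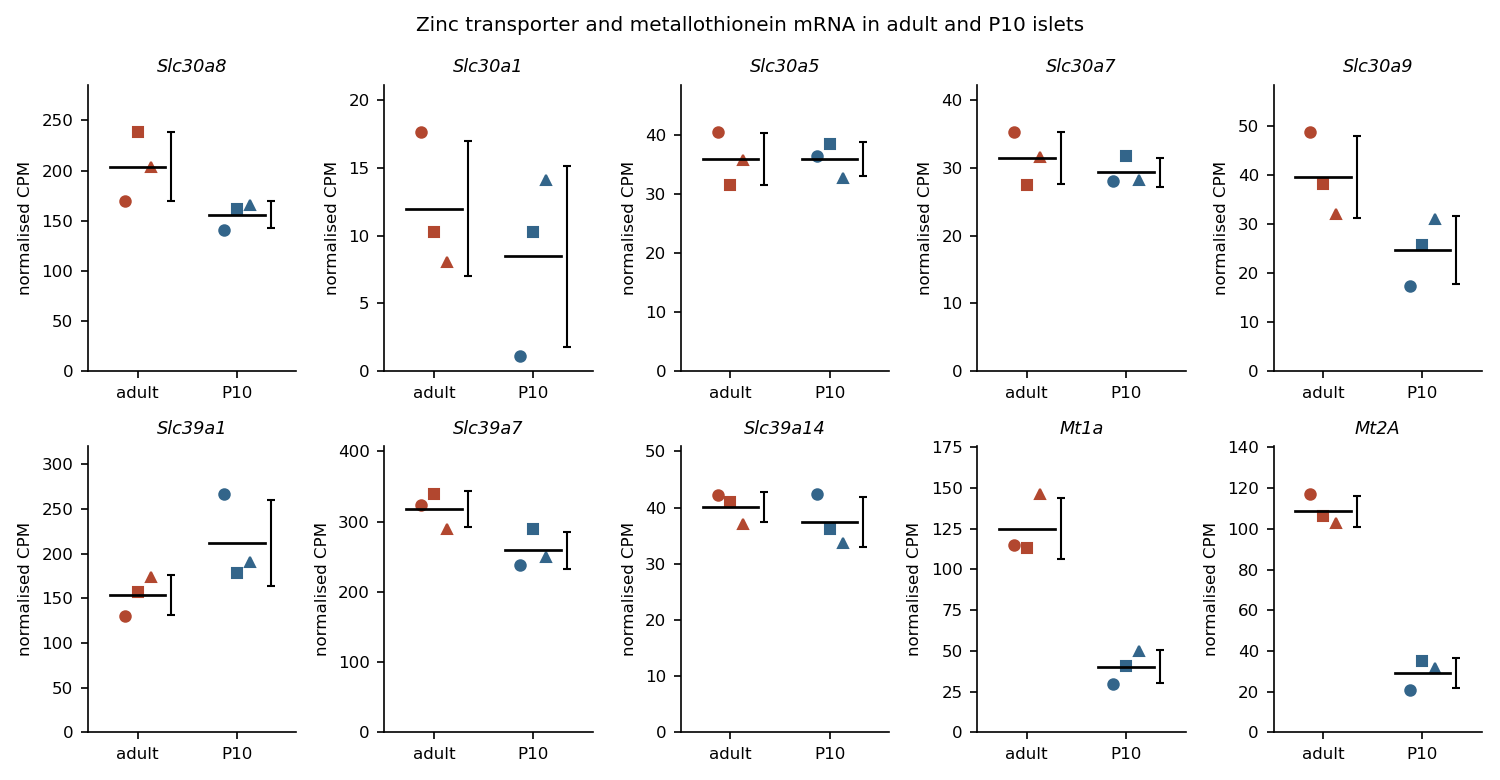
Normalised CPM of the 10 genes in each library, adult left and P10 right; circle, square and triangle are replicates 1, 2 and 3 of the adult and 1, 3 and 4 of the P10 group, the line is the mean and the bar 1 SD either side (n = 3). The metallothioneins have the widest gap, between 103 and 146 CPM in adult and between 20.9 and 50.01 CPM in P10 libraries.

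Slc30a8 encodes ZnT8, the exporter that loads zinc into insulin granules, and it is known for its high expression in beta cells. Its mRNA was measured at 169, 238 and 204 CPM in adult replicates 1, 2 and 3, against 141, 162 and 166 CPM in P10 replicates 1, 3 and 4. The groups did not overlap, but the lowest adult library lay only just above the highest P10 library. The log2 fold change was 0.38 ± 0.14 (SE), with a 95% interval of 0.08 to 0.69, and did not pass (edgeR FDR = 0.0586). The call depends on settings: it passed in DESeq2 (FDR = 0.0306), without a filter (FDR = 0.0405) and without adult replicate 1 (FDR = 0.0324), and the sign turned under library totals alone (-0.12).

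The mRNAs of the granule cargo moved further than that of its zinc exporter. Ins1 and Ins2, the rat insulin genes, had log2 fold changes of 1.09 and 1.17, and Iapp, the amyloid polypeptide secreted with insulin, of 1.22. A ratio of counts within a library does not depend on the scaling between libraries, but it can depend on the mix of cells. Of the alpha cell markers 2 of 6 were higher in adults and 1, Gcg, was lower (log2 fold change -0.77, edgeR FDR = 0.000126). The part of cell makeup in the ratios was not tested, and they describe mRNA alone. For every 1000 insulin counts there were 0.317, 0.357 and 0.375 counts of Slc30a8 in adult replicates 1, 2 and 3, against 0.477, 0.717 and 0.598 in P10 replicates 1, 3 and 4. Every adult library was below every P10 library. The mean was 0.350 ± 0.0297 in adult and 0.597 ± 0.120 in P10 islets (SD, n = 3 each), 1.71-fold lower in adults, with an exact two-sided permutation p of 0.1, the smallest that 3 against 3 libraries can give.

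Set against Iapp the ratio was likewise lower in adults. There were 46.0, 68.8 and 46.1 counts of Slc30a8 for every 1000 Iapp counts in adult replicates 1, 2 and 3, against 97.8, 91.4 and 94.0 in P10 replicates 1, 3 and 4. Adult replicate 2 stood above the other adult libraries, and the groups did not overlap (1.76-fold lower in adults; exact two-sided permutation p = 0.1). Ins1 and Ins2 are near-identical and only unique alignments were counted, so an unknown part of their reads is missing from the first ratio, which does not touch the second. The share of alignments that were not unique ran from 15.1% to 17.8% in adult and from 23.4% to 27.7% in P10 libraries.

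**Figure D2:**
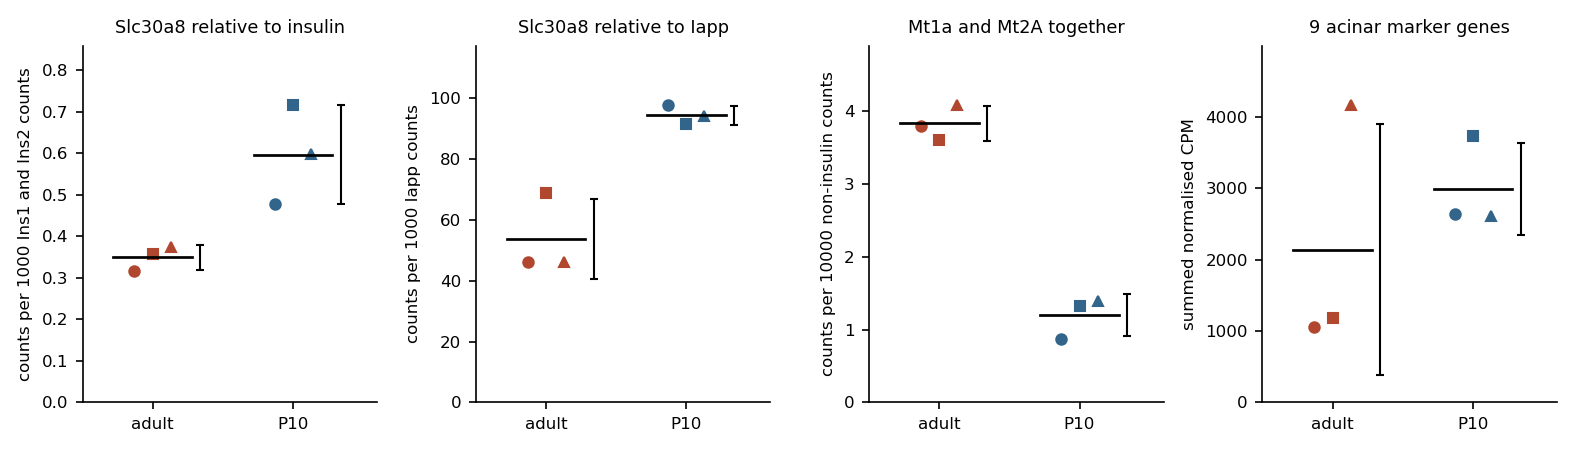
Counts of Slc30a8 per 1000 insulin counts and per 1000 Iapp counts, metallothionein counts per 10000 gene counts other than insulin, and the summed CPM of 9 acinar markers, adult left and P10 right; symbols, line and bar as in the plot of CPM by library. The 2 Slc30a8 ratios are lower and the metallothionein share higher in every adult library than in any P10 library, while the acinar sum overlaps.

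By the shape of their values over the 6 libraries (root mean square difference of mean-centred log2 CPM, among 5153 other genes averaging at least 20 CPM), the genes most like Slc30a8 included Pick1, R3hdm4, Tmf1 and Atp6v1e1. Their differences from it ran from 0.0408 to 0.0763 log2 units. Pick1, a scaffold protein known from vesicle trafficking, averaged 33.3 CPM in adult and 25.9 CPM in P10 islets. Atp6v1e1, a subunit of the proton pump that acidifies vesicles, averaged 143 CPM in adult and 103 CPM in P10 islets. Of these named genes Atp6v1e1 was called higher in adults (edgeR FDR = 0.0166), whereas Pick1 (0.217), R3hdm4 (0.101) and Tmf1 (0.180) did not pass. This likeness is a description over 6 libraries that differ by age.

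Mt1a and Mt2A, the widely expressed metallothioneins, were both called higher in adult islets. Mt2A was at 117, 106 and 103 CPM in adult replicates 1, 2 and 3, against 20.9, 34.9 and 31.6 CPM in P10 replicates 1, 3 and 4. All adult libraries were close together and far above all P10 libraries. Its log2 fold change was 1.90 ± 0.19 (SE), with a 95% interval of 1.50 to 2.31 and an edgeR FDR of 2.99e-06, and 115 of the 10124 tested genes, Mt2A among them, had a log2 fold change as high or higher.

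Mt1a was at 115, 113 and 146 CPM in adult replicates 1, 2 and 3, against 30.0, 40.9 and 50.01 CPM in P10 replicates 1, 3 and 4. Adult replicate 3 was the highest and P10 replicate 1 the lowest, with a wide gap between the groups. The log2 fold change was 1.65 ± 0.19 (SE), with a 95% interval of 1.25 to 2.05 and an edgeR FDR of 1.17e-05, and 170 tested genes had one as high or higher. Both calls held in all 13 alternatives, with log2 fold changes between 1.15 and 1.89 for Mt1a and between 1.40 and 2.08 for Mt2A, the lowest under library totals alone.

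As a share of the gene counts other than insulin, Mt1a and Mt2A together made up 3.80, 3.61 and 4.08 of every 10000 in adult replicates 1, 2 and 3, against 0.871, 1.33 and 1.39 in P10 replicates 1, 3 and 4. The share was 3.20-fold higher in adults, with no overlap (exact two-sided permutation p = 0.1, the smallest possible). The counts of Mt1a for each count of Mt2A were 0.979, 1.07 and 1.43 in adult and 1.44, 1.17 and 1.58 in P10 libraries, which overlapped (exact two-sided permutation p = 0.2). Acinar markers (3 of 9 tested higher and 3 lower in adults, Prss2 at 0 in every library) summed to 1058, 1186 and 4163 CPM in adult replicates 1, 2 and 3 and to between 2604 and 3728 CPM in P10 libraries. Single acinar markers differed in direction: Ctrb1, a chymotrypsinogen, was at 441, 563 and 1513 CPM in adult and between 1437 and 2060 CPM in P10 libraries, whereas Pnlip, pancreatic lipase, was at 30.4, 29.7 and 92.7 CPM in adult and between 0.949 and 1.21 CPM in P10 libraries. The part of acinar transcripts in the metallothionein difference was not tested. Without adult replicate 3 the log2 fold changes were 1.52 for Mt1a and 1.95 for Mt2A. Rat metallothionein genes resemble each other and have pseudogene copies, so reads that aligned to more than 1 of them are missing from the counts of both. Over all genes the share of alignments that were not unique was higher at P10, 23.4% to 27.7% against 15.1% to 17.8% in adult libraries. Its part in the metallothionein difference was not tested.

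The stretches before the 2 metallothionein genes are shown because the 2 genes moved together and because such promoters are known for metal response elements, the sites that MTF-1 binds. The stretch before Slc30a1, which is known as another target of MTF-1 in mammals, is shown beside them. Each holds the 250 bases before the annotated start, 5′ to 3′ on the strand of the gene, from RefSeq on the GRCr8 build, whereas the counts were made on rn5. Capitals mark matches to the core of the metal response element, TGCACNC or TGCGCNC, on either strand. Mt1a is named Mt1 in RefSeq, with Mt1a as a synonym, and lies at chr19:10832976-10833225 on the minus strand, as does Mt2A at chr19:10838709-10838958, and Slc30a1 lies at chr13:106021769-106022018 on the plus strand.
Mt1a: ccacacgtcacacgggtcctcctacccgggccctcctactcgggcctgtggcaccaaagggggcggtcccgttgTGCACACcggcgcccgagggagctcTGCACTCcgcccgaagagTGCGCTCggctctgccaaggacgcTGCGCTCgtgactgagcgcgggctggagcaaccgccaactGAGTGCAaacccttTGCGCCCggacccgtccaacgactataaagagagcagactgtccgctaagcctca
Mt2A: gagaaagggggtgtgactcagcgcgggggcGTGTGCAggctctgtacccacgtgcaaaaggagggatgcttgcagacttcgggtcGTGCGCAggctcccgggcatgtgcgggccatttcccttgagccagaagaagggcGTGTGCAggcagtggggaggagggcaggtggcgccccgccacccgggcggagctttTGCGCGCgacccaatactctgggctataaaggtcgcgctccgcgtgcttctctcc
Slc30a1: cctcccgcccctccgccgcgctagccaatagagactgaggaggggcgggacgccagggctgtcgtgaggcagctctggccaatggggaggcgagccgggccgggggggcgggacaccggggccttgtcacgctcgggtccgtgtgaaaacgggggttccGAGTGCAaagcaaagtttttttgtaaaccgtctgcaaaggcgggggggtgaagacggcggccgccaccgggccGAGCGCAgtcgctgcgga

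The Mt1a stretch held 6 matches and the Mt2A stretch 4, none of them overlapping another. Of 33469 RefSeq stretches of this length 0.0269% held at least 6 matches, 0.266% at least 4 and 4.90% at least 2. In both genes the match nearest to the start lay at the same place, 55 to 49 bases before it, followed by a TATAAA box at 32 to 27 bases in Mt1a and 31 to 26 in Mt2A. A TATAAA on the strand of the gene stood in 8.06% of all stretches. Slc30a1 held 2 matches and no TATAAA.

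Matches also stood before genes that were not called. The first of 2 Slc39a7 stretches held 4 matches, of which a pair on opposite strands overlapped, and the Slc30a5 stretch held 2 that overlapped each other; neither gene passed the test. Slc39a1, which fell, held 1, and Slc30a9, which rose, held none. Promoter sequences were found for 7 of the 10 genes and not for Slc30a8, Slc30a7 and Slc39a14. A match is a run of letters and not a measured binding site, and no match says only that these letters are not in the window.

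**Figure D3:**
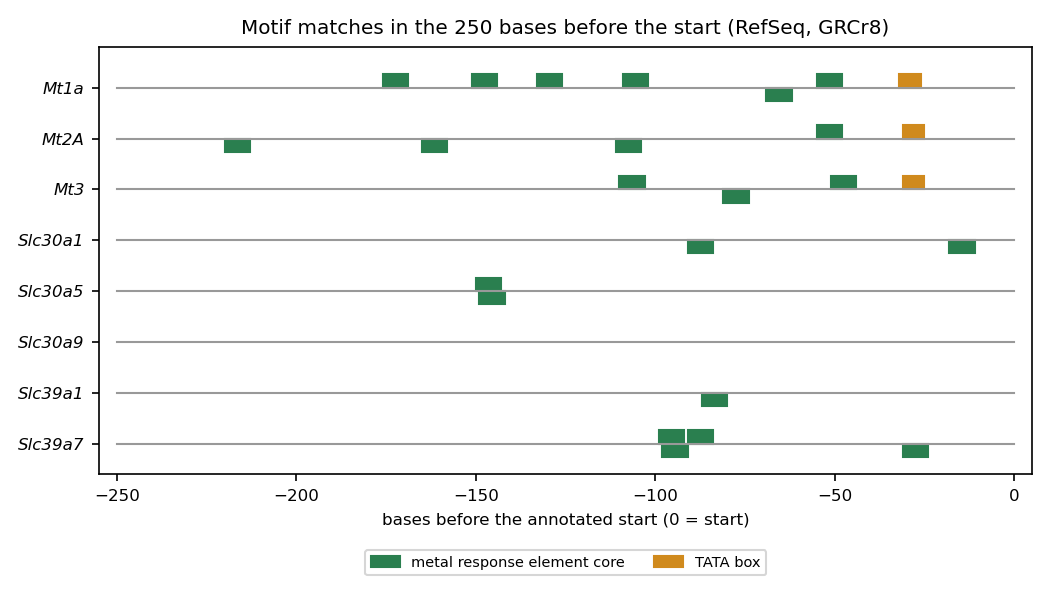
Matches to the metal response element core (green; above the line on the strand of the gene, below it on the other) and to TATAAA (orange) along the 250 bases before the annotated start, in bases before the start. Mt1a has 6 core matches, Mt2A 4 and Mt3 3, each with a TATA box close to the start; the first stretch is drawn for Slc39a7.

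The genes most like Mt1a in shape over the 6 libraries, by the measure used for Slc30a8, were Stk32c, Slc24a2, Mapt, Vdr and Cnnm1, at differences from 0.0794 to 0.174 log2 units. Slc24a2 encodes a sodium, calcium and potassium exchanger and averaged 65.0 CPM in adult and 21.3 CPM in P10 islets. Vdr, the vitamin D receptor, averaged 41.5 CPM in adult and 13.7 CPM in P10 islets. Mapt, the microtubule protein tau, averaged 48.2 CPM in adult and 13.8 CPM in P10 islets.

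Among the exporters, Slc30a9 was the only one called. It encodes ZnT9, which is found in mitochondria. Its mRNA was at 48.8, 38.1 and 32.1 CPM in adult replicates 1, 2 and 3, against 17.4, 25.7 and 31.1 CPM in P10 replicates 1, 3 and 4. The highest P10 library came within about 1 CPM of the lowest adult library. The log2 fold change was 0.69 ± 0.24 (SE), with a 95% interval of 0.17 to 1.20 (edgeR FDR = 0.0485). Leaving out P10 replicate 1 or 3, or adult replicate 1 or 2, ended the call (FDR from 0.0852 to 0.223), as did a stricter filter (0.0523), a replicate block (0.0974) and library totals alone (0.587). The block takes P10 replicate 4 and adult replicate 2 out of the age difference, so a call lost under it, here or below, rests on fewer libraries.

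Slc30a5 and Slc30a7 encode ZnT5 and ZnT7, exporters of the early secretory pathway that supply zinc to enzymes made there. Slc30a5 was at 40.5, 31.5 and 35.8 CPM in adult replicates 1, 2 and 3, against 36.5, 38.5 and 32.8 CPM in P10 replicates 1, 3 and 4. Slc30a7 was at 35.3, 27.5 and 31.6 CPM in adult replicates 1, 2 and 3, against 28.1, 31.8 and 28.2 CPM in P10 replicates 1, 3 and 4. The groups overlapped for both genes. The 95% intervals of the log2 fold change, -0.40 to 0.40 for Slc30a5 (edgeR FDR = 0.995) and -0.33 to 0.53 for Slc30a7 (edgeR FDR = 0.760), bound what difference the data allow under this scaling.

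ZnT5 works as a pair with ZnT6, the product of Slc30a6. Slc30a6 had 12, 14 and 52 counts in adult replicates 1, 2 and 3, against 77, 72 and 32 counts in P10 replicates 1, 3 and 4, and missed the threshold with a log2 fold change of -0.58 (edgeR FDR = 0.350). The counts of Slc30a5 for each count of Slc30a6 were 9.75, 6.14 and 3.75 in adult libraries and 3.49, 3.60 and 4.22 in P10 libraries. Adult replicates 1 and 2 were above all P10 libraries and adult replicate 3 was among them (exact two-sided permutation p = 0.2).

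Slc30a1 encodes ZnT1, the exporter of the plasma membrane. It had 51, 28 and 44 counts in adult replicates 1, 2 and 3, against 8, 69 and 58 counts in P10 replicates 1, 3 and 4, which is 17.6, 10.3 and 8.08 CPM in adults against 1.08, 10.3 and 14.1 CPM at P10. The low value lay in P10 replicate 1, the library that stood apart. The log2 fold change was 0.52 ± 0.61 (SE; edgeR FDR = 0.585), the widest error of the 10 genes, and it was -0.023 without that library.

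Among the importers, Slc39a1 was called lower in adult islets. It encodes ZIP1, a widely expressed importer of the plasma membrane. Its mRNA was at 130, 158 and 174 CPM in adult replicates 1, 2 and 3, against 267, 178 and 191 CPM in P10 replicates 1, 3 and 4. P10 replicate 1 was far above the other P10 libraries, which lay close to adult replicate 3. The log2 fold change was -0.46 ± 0.16 (SE), with a 95% interval of -0.81 to -0.11 (edgeR FDR = 0.0479). It was -0.25 without P10 replicate 1 (FDR = 0.235), and the call also failed with P10 replicate 4 or with adult replicate 1 or 2 left out (FDR from 0.0606 to 0.207), with relative log expression factors (0.0546), with factors that leave out hormone and acinar genes (0.0535) and with a replicate block (0.157). Under library totals alone the fall was larger (-0.95).

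Slc39a7 encodes ZIP7, which releases zinc from the endoplasmic reticulum. It was at 323, 340 and 290 CPM in adult replicates 1, 2 and 3, against 238, 289 and 250 CPM in P10 replicates 1, 3 and 4. Adult replicate 3 and P10 replicate 3 were almost level, with the other libraries further apart. The log2 fold change was 0.29 ± 0.12 (SE), with a 95% interval of 0.03 to 0.56, and missed the threshold (edgeR FDR = 0.0964). Scaled by library totals alone it was -0.21.

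Slc39a14 encodes ZIP14, an importer of zinc, iron and manganese. It was at 42.2, 41.1 and 37.1 CPM in adult replicates 1, 2 and 3, against 42.4, 36.1 and 33.7 CPM in P10 replicates 1, 3 and 4. The groups overlapped, and the log2 fold change was 0.09 ± 0.18 (SE; 95% interval -0.30 to 0.48, edgeR FDR = 0.759).

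**Figure D4:**
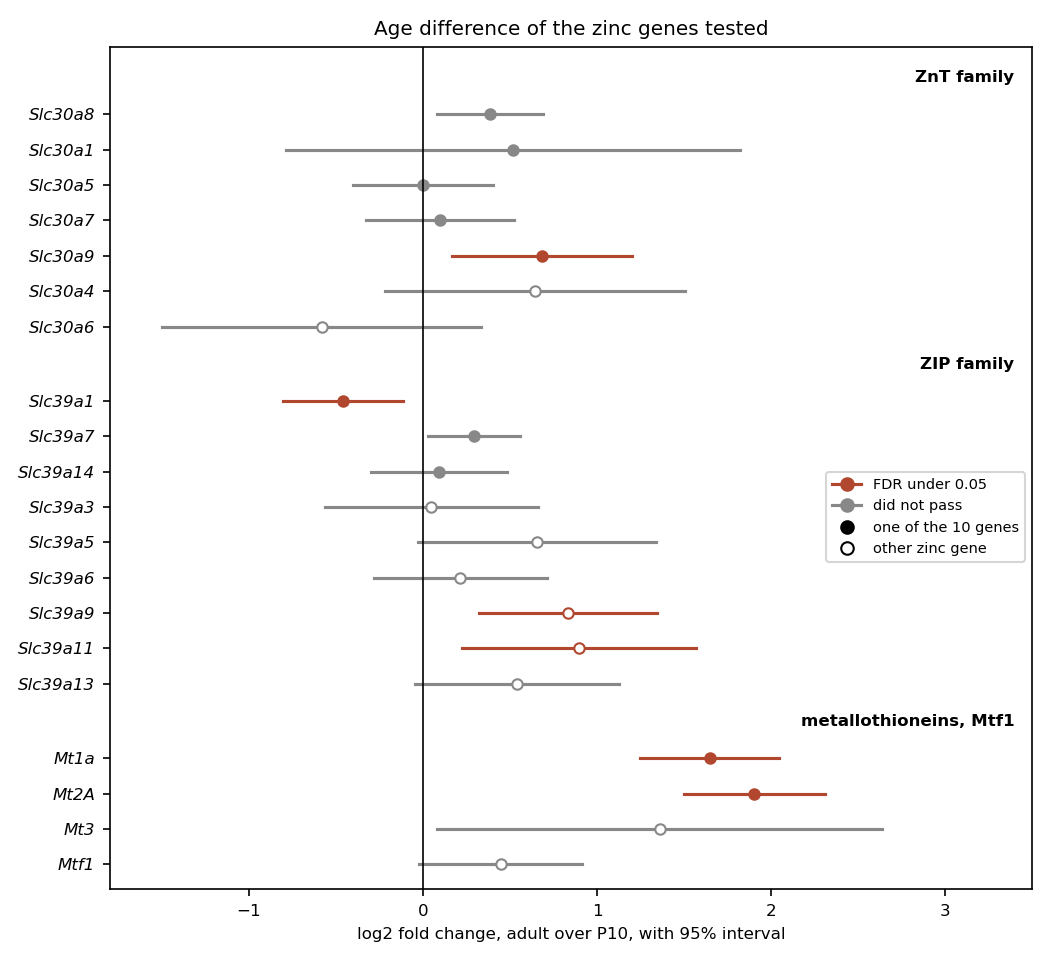
Log2 fold change, adult over P10, of the 10 genes (filled) and the 10 other zinc genes tested (open), with 95% intervals; red marks an edgeR FDR under 0.05. Mt1a and Mt2A lie farthest from 0 with narrow intervals, and the intervals of most transporters hold 0 or come close to it.

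The rest of the zinc families were taken from lists of 5 other exporters, 11 other importers and 4 further genes of metallothioneins and their regulator. Of these 20 genes 18 had a row and 10 were tested, and 2 rose, none fell and 8 did not pass. Of all tested genes 12.5% were higher and 13.8% lower, so 2 of 10 is near the background. The median log2 fold change was 0.59 over the 10 and -0.03 over all tested genes. None of the 10 was lower at an unadjusted p under 0.05 either, and 0 were lower in DESeq2; Mt3 alone passed at the unadjusted p without passing the FDR. Slc39a9, which encodes ZIP9 of the secretory pathway, was at 35.6, 30.1 and 27.7 CPM in adult replicates 1, 2 and 3, against 16.7, 14.1 and 21.8 CPM in P10 replicates 1, 3 and 4. It rose with a log2 fold change of 0.83 ± 0.24 (SE; edgeR FDR = 0.0178), with no overlap. Slc39a11, which encodes ZIP11, was at 32.2, 30.8 and 23.9 CPM in adult replicates 1, 2 and 3, against 19.3, 7.73 and 19.7 CPM in P10 replicates 1, 3 and 4. It rose with a log2 fold change of 0.90 ± 0.32 (SE; edgeR FDR = 0.0467).

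The rise of Slc39a9 was lost without P10 replicate 3 (FDR = 0.0729) or adult replicate 1 (0.0886), and that of Slc39a11 when P10 replicate 3 (0.147) or adult replicate 1 (0.149) or 2 (0.128) was left out. Slc39a9 did not pass with a replicate block (0.0522) or under library totals alone (0.294), nor did Slc39a11 (0.0516 and 0.295). Of the exporters tested, Slc30a4, which encodes ZnT4, had a log2 fold change of 0.64 (FDR = 0.270). The importers Slc39a3, Slc39a5, Slc39a6 and Slc39a13 had log2 fold changes between 0.05 and 0.66 and did not pass.

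Mt3, a metallothionein best known from brain, had 11, 16 and 37 counts in adult replicates 1, 2 and 3, against 15, 12 and 11 counts in P10 replicates 1, 3 and 4. As CPM every adult library was above every P10 library, at 3.80, 5.86 and 6.79 against 2.03, 1.78 and 2.67, but the log2 fold change of 1.36 ± 0.60 (SE) did not pass (edgeR FDR = 0.110). Mtf1, the gene of the zinc-sensing factor MTF-1, was at 27.7, 26.4 and 29.6 CPM in adult replicates 1, 2 and 3, against 22.9, 18.1 and 20.4 CPM in P10 replicates 1, 3 and 4. Its log2 fold change was 0.45 ± 0.22 (SE; edgeR FDR = 0.152). Scaled by library totals alone it was -0.040. Mt4 had no count in any library, and Slc30a10 and Slc39a12 had none either.

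A pair of low genes was seen at P10 but in no adult library, and both were left out of the test by the filter. Slc39a4 encodes ZIP4, the importer of intestinal zinc uptake. It had no count in the 3 adult libraries, against 12, 20 and 5 counts in P10 replicates 1, 3 and 4. Set against a floor of 3 counts over the adult group, with the P10 counts taken as exact, the ratio was 7.49. The exact 95% counting interval of the ratio, P10 over adult, began at 5.79. Slc30a2 encodes ZnT2, a vesicular exporter of secretory epithelia. It had no count in the adult libraries, against 15, 17 and 3 counts in P10 replicates 1, 3 and 4. The ratio against the same floor was 7.08, with a counting interval that began at 5.46. Without a filter both were called lower (edgeR FDR = 0.0317 for Slc39a4 and 0.0418 for Slc30a2). The 95% intervals of the log2 fold change in that fit were wide, -10.7 to -1.86 for Slc39a4 and -10.7 to -1.62 for Slc30a2. Without adult replicate 3, the deepest adult library, the ratios against the floor were 3.80 for Slc39a4 and 3.60 for Slc30a2. These ratios and the counting intervals leave out the spread between replicates. Duct and fibroblast markers were lower in the same adult libraries, and their part in this was not tested.

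Slc30a3, which encodes the synaptic vesicle exporter ZnT3, had 2 counts over the adult group, both in adult replicate 3, against 27, 2 and 6 counts in P10 replicates 1, 3 and 4. The ratio of normalised counts, P10 over adult, was 10.6, with an exact 95% counting interval of 2.73 to 91.2. That interval leaves out the spread between replicates. Most of the P10 counts lay in P10 replicate 1, without which the ratio was 4.08. Without a filter the log2 fold change of Slc30a3 was -3.32, with a 95% interval of -6.69 to 0.046, and did not pass (edgeR FDR = 0.166). Slc39a2 was seen in adult replicate 3 alone, with 8 counts, and Slc39a8, the gene of ZIP8, had 4, 0 and 21 counts in adult replicates 1, 2 and 3, against 6, 12 and 6 counts in P10 replicates 1, 3 and 4.

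Metallothioneins are also known to respond to copper, glucocorticoids and inflammation, and lists of such genes were read beside them. Of all tested genes 12.5% were higher and 13.8% lower, and the lists are short. A link of any list to the metallothioneins was not tested. Of 11 copper-handling genes 9 were tested, none rose, also at an unadjusted p under 0.05 in edgeR, with 0 higher in DESeq2, and Commd1 and Cp fell, with log2 fold changes of -1.07 (edgeR FDR = 0.00149) and -1.67 (FDR = 0.00309). Commd1 takes part in copper export, and Cp encodes the copper protein of plasma, ceruloplasmin. Of 8 glucocorticoid-responsive genes 7 were tested and 2 rose, the clock gene Per1 and the kinase gene Sgk1, with log2 fold changes of 0.88 (FDR = 0.00720) and 0.95 (FDR = 0.00891). Both calls were lost under library totals alone (FDR = 0.195 for Per1 and 0.165 for Sgk1), and that of Sgk1 also with a replicate block (0.112). The 5 others did not pass, with Tsc22d3 at a log2 fold change of -0.59 and the remaining 4 between 0.19 and 0.47, and the median of the 7 was 0.38.

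Of 10 acute-phase genes 6 were tested, 4 rose and Lbp fell. Hpx, hemopexin, was at 96.5, 92.7 and 143 CPM in adult replicates 1, 2 and 3, against 2.71, 3.27 and 2.18 CPM in P10 replicates 1, 3 and 4. Fgb and Fgg, chains of fibrinogen, had log2 fold changes of 3.51 and 2.37. These genes and the metallothioneins differed between the same 6 libraries, and a link between them was not tested.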

How the data were processed

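Polyadenylated RNA of 6 islet libraries was sequenced single-end without strand, per the labels' protocols. Each library has a deposited file of raw counts, with genes named by symbol; the submitters' processing notes name Bowtie2, TopHat2 2.0.10, HTSeq and the rn5 build. The 5 counter rows of each file were left out (ambiguous reads 0.319% to 0.474%, alignments not unique 15.1% to 27.7%). Reads of overlapping or antisense genes cannot be separated. The table of all libraries has the same column totals and was not used.

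Of 13245 genes with a count, filterByExpr (minimum count 10, total 15) kept 10124. EdgeR 4.0.16 in R 4.3.3 (TMM factors, quasi-likelihood, age as the only term) gave log2 fold changes, SE (log2 fold change over the root of F) and Benjamini-Hochberg FDRs over the 10124 genes (threshold 0.05); fits were tested on simulated data. P-values measure the spread between labelled replicates, and no pair of these agreed within sampling noise. Single ratios were compared by exact permutation. DESeq2 1.42.0, other scalings and filters, a replicate block and leaving out each library were alternatives.

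The genes and lists were chosen with earlier results of these data known. All 10 genes, list counts with up to 3 genes of smallest p, and the 5 nearest patterns of Slc30a8 and Mt1a (pseudocount 1) are named, except 1 pattern gene that is not reported here; Slc30a4, Slc30a6, Ctrb1, Pnlip, Lbp, Mt3, Mtf1 and the genes under the filter were named after their values were seen. Of the 10 genes, all matched a RefSeq gene of GRCr8, Mt1a by synonym.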

Additional observations from a re-analysis of the deposited data

How the results depend on the processing

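Under library totals alone, 343 genes were called higher and 3612 lower, and none of the other zinc genes was higher (0 against 2). With a replicate block 679 genes were higher and 729 lower, 0 of the 10 genes were lower and 0 other zinc genes higher. That block rests on replicate numbers 1 and 3, which occur in both groups, and P10 replicate 4 and adult replicate 2 add nothing to its age difference. Deviations of same-numbered libraries correlated at -0.036 and -0.0035, so the numbers are not taken to pair the samples. The 1 lower gene, Slc39a1, was also lost (0 lower) with relative log expression factors and with factors without hormone and acinar genes. Without a filter 2 other zinc genes were lower, Slc30a2 and Slc39a4. Leaving out each library gave 923 to 1262 genes higher and 1040 to 1266 lower, 2 to 3 of the 10 genes higher and 0 to 1 lower, and 0 to 3 other zinc genes higher and 0 to 1 lower. Over the same settings the log2 ratio, adult over P10, ran from -0.91 to -0.62 for Slc30a8 per insulin count (-0.77 with all libraries, -0.82 per Iapp count), and from 1.49 to 1.80 for the metallothionein share (1.68 with all libraries, 1.25 of all gene counts).

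Signs turned for genes that did not pass. Under library totals alone the log2 fold change was -0.12 for Slc30a8, -0.39 for Slc30a7, -0.21 for Slc39a7, -0.40 for Slc39a14 and -0.040 for Mtf1. Slc30a1 was at -0.023 without P10 replicate 1 and between that and 1.08 without single libraries. Slc30a5, at -0.002, was at 0.0080 with relative log expression factors, 0.0078 in DESeq2, 0.0071 with factors without hormone and acinar genes, 0.0069 without a filter, 0.020 with a replicate block, and between -0.086 and 0.084 without single libraries. Library totals alone shift the median over all genes by -0.49 on the log2 scale, and the cause of the other turns was not tested.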
